A study of Mus musculus with 31 samples.

Results

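The 10 genes described here encode inhibitory receptors of T cells (Havcr2, Ctla4, Pdcd1, Lag3, Tigit, Cd96, Btla and Cd160), a ligand of Havcr2 (Lgals9) and the transcription factor Tox. They were taken by symbol from the 24594 genes of the deposited count table, and each symbol matched 1 row. Regulatory T cells (Tregs) of mice with and without mammary tumors had been sorted and their RNA sequenced in 31 libraries, which form 10 groups of tissue and genotype. The sort kept viable cells positive for CD45, CD3, CD4 and CD25 and negative for CD8, and FOXP3, the factor that defines Tregs, was not part of it. Tumor-bearing mice had the genotype K14cre;Cdh1F/F;Trp53F/F (KEP), where Cre under the keratin 14 promoter removes E-cadherin and p53 in epithelium, and they were taken at a tumor area of 225 mm2. Control mice were littermates with the genotype wt;Cdh1F/F;Trp53F/F (WT), which carry both floxed alleles but no Cre. All were FVB/N mice, and their age is not given in the sources used here. KEP mice gave 3 libraries each from blood, spleen, lung, tumor-draining lymph node and tumor, with 1 mouse per library. WT mice gave 3 libraries each from blood, spleen, lung and lymph node and 4 from healthy mammary gland, with 3 mice pooled per library, so that a WT library averages over mice and a KEP library does not. Collagenase A was used to dissociate tumors and Liberase to dissociate lungs, so tissue differences include differences in preparation.

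Inhibitory receptors are induced when a T cell is activated and dampen its signals when they meet their ligands. CTLA-4 competes with CD28 for CD80 and CD86 and is used by Tregs to suppress, PD-1 (Pdcd1) recruits phosphatases on binding PD-L1 or PD-L2, and LAG-3 binds MHC class II. TIM-3 (Havcr2) binds galectin-9 (Lgals9) among other ligands, TIGIT and CD96 share the ligand CD155 (Pvr) with the activating receptor CD226, and BTLA and CD160 bind HVEM (Tnfrsf14). Tox is induced by sustained antigen receptor signalling and is known from exhausted CD8 T cells, where several of these receptors are expressed together.

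Total counts ran from 8154765 to 15258958 per library. Levels are given as CPM (counts scaled to library size with TMM factors) for each library or as mean ± SD over libraries (n = 4 in WT mammary gland and n = 3 in every other group). Differences are log2 fold changes ± SE from the quasi-likelihood test of edgeR, and a gene is said to rise or fall where its Benjamini-Hochberg adjusted p over all genes tested was under 0.05. The summed level of 10 T cell genes lay between 83.5% and 103% of its WT spleen mean in the 24 libraries from tissues sampled in both genotypes. It was 103%, 61.5% and 32.0% in the 3 tumor libraries and 7.69%, 32.5%, 2.77% and 3.66% in the 4 mammary gland libraries, and milk protein transcripts reached between 5219 and 29279 CPM in the latter. Tumor replicate 3 held 4914 CPM of milk protein transcripts and 2171 CPM of 8 epithelial genes. Tumor replicates 1 and 2 held 20.8 and 2.58 CPM of the former and 170 and 202 CPM of the latter. In such bulk samples, fewer cells of a type and less RNA per cell cannot be told apart. The labelled cell type was checked on Foxp3, which lay between 716 and 1746 CPM in the 24 libraries, between 462 and 1610 CPM in tumor and between 18.7 and 416 CPM in mammary gland. Cd8a did not exceed 3.85 CPM in any library. A list of 2 CD8 T cell genes summed to at most 12.97 CPM, in KEP lymph node replicate 2, where Cd8a was 1.52 CPM. In the 24 libraries, 8 B cell genes summed to between 359 and 998 CPM. There, 8 dendritic cell genes summed to between 93.5 and 1172 CPM. The part of these other cells in the members' levels was not tested.

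Havcr2 and Tigit are shown with the bases before their start sites, since they were the members that rose in KEP mice in all 4 tissues sampled from both genotypes. RefSeq promoters of the GRCm38.p6 build were held for 8 of the 10 genes. 4 motifs were searched on both strands of the 250 bases before each start: TGANTCA (AP-1), TGGAAA (NFAT), TGTGGT (RUNX) and TTCNNNGAA (STAT). Capitals mark the matches, and each run reads 5′ to 3′ on the strand of the gene.
Havcr2, chr11:46454681-46454930, plus strand: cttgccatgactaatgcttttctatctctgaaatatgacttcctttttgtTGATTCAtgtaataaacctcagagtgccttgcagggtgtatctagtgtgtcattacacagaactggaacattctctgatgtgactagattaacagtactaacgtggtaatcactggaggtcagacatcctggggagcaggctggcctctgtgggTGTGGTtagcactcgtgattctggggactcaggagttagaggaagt
Tigit, chr16:43664185-43664434, minus strand: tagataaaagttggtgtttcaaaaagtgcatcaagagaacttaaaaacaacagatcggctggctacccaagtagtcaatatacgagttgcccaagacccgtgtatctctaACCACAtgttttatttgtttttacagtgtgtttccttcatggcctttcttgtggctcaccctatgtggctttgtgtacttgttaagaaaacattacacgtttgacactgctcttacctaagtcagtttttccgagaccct
The Havcr2 window held the AP-1 motif and the RUNX motif, and the Tigit window held the RUNX motif alone. Among 32851 promoters of the same length, 6.75% held the AP-1 motif, 18.6% the NFAT motif, 14% the RUNX motif and 7.02% the STAT motif. Cd96, Btla and Cd160 also held RUNX matches, Ctla4 and Cd96 each held an NFAT match, and the windows of Pdcd1 and Lgals9 held none of the 4 motifs. These matches describe letters in the windows and no binding was measured.

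In KEP against WT mice, each member either rose or did not pass the test in the 4 tissues sampled from both genotypes, and none fell. Havcr2 and Tigit rose in all 4 tissues, Tox in spleen, lung and blood, Lag3 in lymph node, lung and blood, and Pdcd1 and Lgals9 in lung and blood. Ctla4, Cd96, Btla and Cd160 did not pass this test in any of them. In lymph node 3 of the 10 members rose, where 1.12% of all 12825 genes tested were called (0.663% higher). In spleen 3 rose against 4.26% of all genes called (3.3% higher), in lung 6 against 19.9% (9.61% higher) and in blood 6 against 20.2% (9.87% higher). The members' median log2 fold change was 0.08 in lymph node, 0.37 in spleen, 0.54 in lung and 0.61 in blood, beside medians over all genes of 0.01, -0.00, -0.02 and -0.01. Foxp3 itself lay between 716 and 1208 CPM in the 12 WT libraries of these tissues and between 1121 and 1746 CPM in the 12 KEP libraries, and its part in the members' differences was not tested. Library titles carry a date (the title date), and no date was shared by the genotypes, so that an effect of the date cannot be told apart from the tumor. When all 31 libraries shared 1 spread, Havcr2 alone was called, in spleen, lung and blood (adjusted p 0.00586, 0.00439 and 0.00223), and in lymph node its adjusted p was 0.257.

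**Figure D1:**
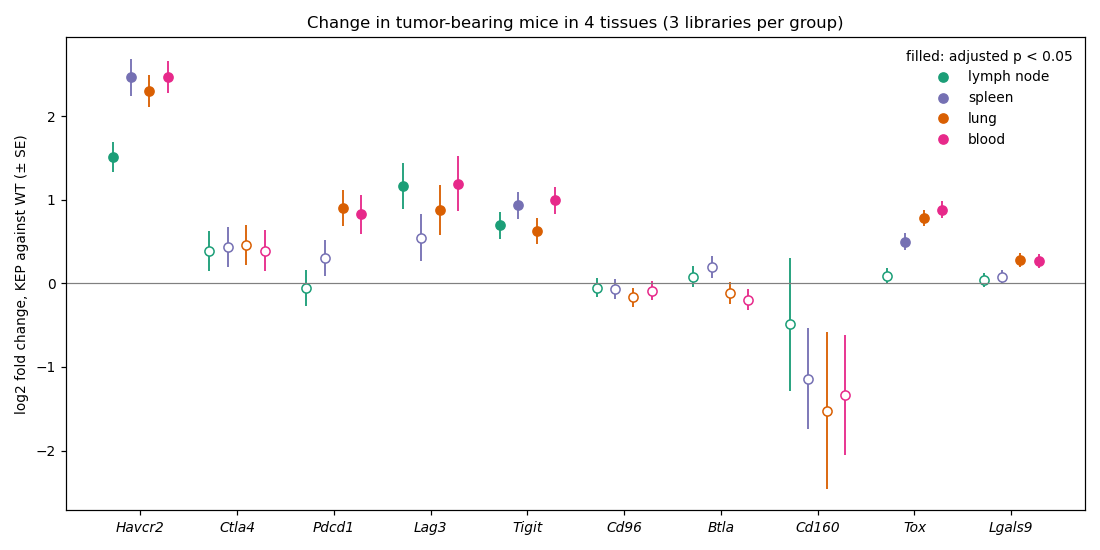
Log2 fold change of each gene in KEP against WT mice (vertical axis, ± SE of the edgeR fit) for lymph node, spleen, lung and blood, with 3 libraries per group; filled points passed an adjusted p under 0.05. Havcr2 stands highest in every tissue, between 1.51 and 2.47, and Cd96 and Btla lie near 0.

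Havcr2 encodes TIM-3, a receptor found on interferon-producing T cells, on a subset of Tregs and also on macrophages and dendritic cells (chromosome 11, 46454935 to 46481255, plus strand, GRCm38). In WT spleen it was low at 2.35, 1.80 and 2.24 CPM, and in KEP spleen it was 11.2, 11.7 and 12.5 CPM. In blood it was 5.72, 6.0 and 5.17 CPM in WT and 28.9, 28.1 and 37.7 CPM in KEP mice. In lung it was 6.98, 6.81 and 8.01 CPM in WT and 35.8, 34.4 and 38.1 CPM in KEP mice. Lymph nodes started higher, at 9.73, 14.6 and 10.5 CPM in WT, and reached 40.2, 21.9 and 36.5 CPM in KEP mice. Every KEP library therefore lay above every WT library of its tissue, as did the libraries of 24.1% (lymph node), 25.2% (spleen), 34.3% (lung) and 33.1% (blood) of all genes in either direction. Havcr2 rose by 2.47 ± 0.22 in spleen (adjusted p = 1.28e-07), 2.47 ± 0.19 in blood (2.72e-08), 2.30 ± 0.19 in lung (8.6e-08) and 1.51 ± 0.18 in lymph node (4.12e-05), which are 5.52-, 5.53-, 4.92- and 2.85-fold. It was called whichever library of the groups compared was left out. The increase in lymph node was smaller than in the other tissues by 0.79 to 0.95 log2 units, but the test of a difference among the 4 tissues did not pass (edgeR adjusted p = 0.151). The order of groups ran from WT spleen through mammary gland, WT blood, WT lung, WT lymph node, KEP spleen, KEP blood, KEP lymph node and KEP lung to tumor, with means 29.8-fold apart at its ends.

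Because macrophages also express Havcr2, a list of 12 macrophage and monocyte genes was read beside it. Their summed level was 109 to 190 CPM in WT lung and 42.0 to 85.6 CPM in KEP lung, so that it was lower where Havcr2 was higher. It was 42.7 to 52.8 CPM in WT blood and 49.6 to 82.5 CPM in KEP blood, 9.26 to 13.4 CPM in WT spleen and 18.7 to 38.8 CPM in KEP spleen, and 8.10 to 16.4 CPM in WT lymph node and 17.0 to 21.5 CPM in KEP lymph node. C1qa, C1qb, C1qc and Mrc1 were at 0 in all WT blood libraries, C1qa in all KEP blood libraries and Cd14 in all WT spleen and lymph node libraries. In blood, spleen and lymph node the list was higher in KEP mice together with Havcr2, and its part in the Havcr2 levels was not tested.

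**Figure D2:**
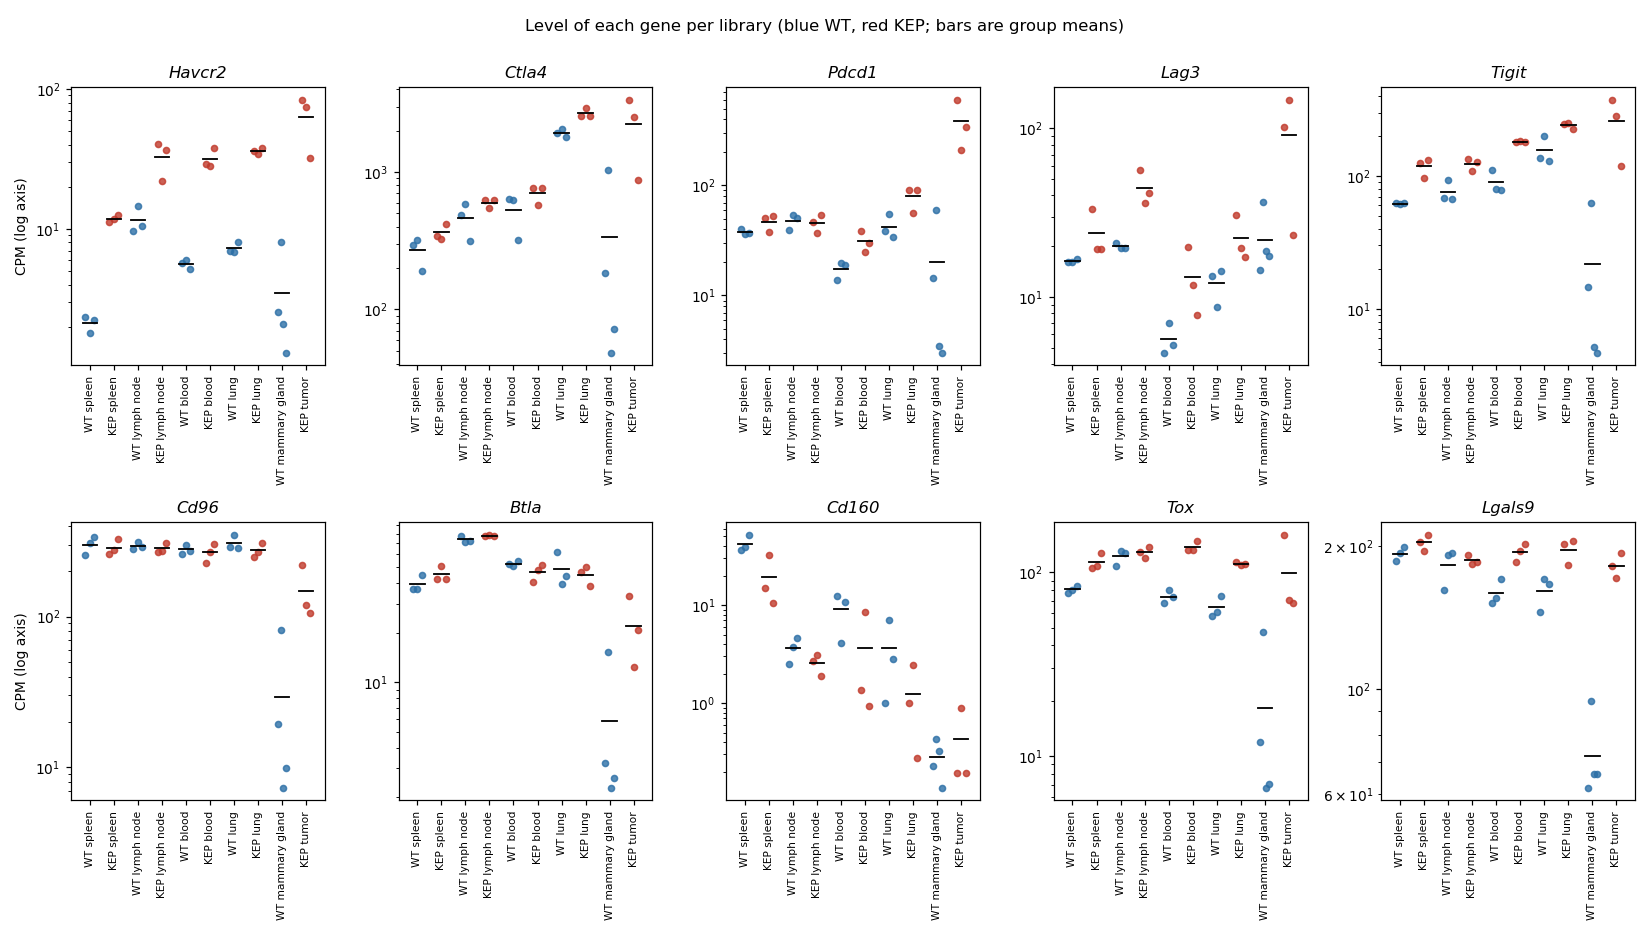
CPM of each gene in every library (log axis) over the 10 groups, WT in blue and KEP in red, with bars at group means. Havcr2 separates KEP from WT libraries in lymph node, spleen, lung and blood; Cd160 is highest in spleen, and mammary gland has the lowest mean for Cd96, Btla, Tox and Lgals9.

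Tigit encodes a receptor that competes with CD226 for CD155 (chromosome 16, 43648861 to 43664184, minus strand). In spleen it was 62.2, 61.1 and 62.7 CPM in WT and 126, 97.0 and 133 CPM in KEP mice. In blood it was 110.2, 80.2 and 79.2 CPM in WT and 179, 185 and 180.2 CPM in KEP mice. No Tigit group of 1 genotype overlapped the other in any of the 4 tissues: lung libraries ran from 131 to 200.3 CPM in WT and from 227 to 251 CPM in KEP mice, and lymph node libraries from 67.3 to 93.1 CPM and from 108 to 134 CPM. Tigit rose by 0.93 ± 0.16 in spleen (adjusted p = 0.00114), 0.99 ± 0.16 in blood (0.000274), 0.63 ± 0.16 in lung (0.00813) and 0.69 ± 0.16 in lymph node (0.0349), all by edgeR. In lymph node that call was lost without WT replicate 1 (0.60, adjusted p = 0.213), WT replicate 3 (0.60, 0.184), KEP replicate 1 (0.64, 0.206) or KEP replicate 3 (0.66, 0.108). The test of a difference among tissues gave an adjusted p of 0.762.

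Lag3, an MHC class II receptor related to CD4 (chromosome 6, 124904361 to 124911705, minus strand), had its highest level outside tumor in lymph node. It was 20.9, 19.5 and 19.5 CPM in WT and 56.3, 36.0 and 41.5 CPM in KEP lymph node. In blood it was the lowest, at 4.68, 6.99 and 5.17 CPM in WT and 19.7, 11.8 and 7.81 CPM in KEP mice. KEP libraries lay above WT libraries in both tissues and in lung (8.67 to 14.3 CPM and 17.3 to 30.9 CPM), and in spleen 1 KEP library stood at 33.3 CPM and the others at 19.3 CPM, against 16.1 to 16.7 CPM in WT. Lag3 rose by 1.16 ± 0.28 in lymph node (edgeR adjusted p = 0.046), 1.19 ± 0.33 in blood (0.0168) and 0.87 ± 0.30 in lung (0.0455), while spleen gave 0.55 ± 0.28 (0.323). These calls lay near the threshold. In lymph node the call was lost when any of the 6 libraries was left out (0.97 to 1.28, adjusted p 0.052 to 0.272). In lung it was lost without any library except KEP replicate 3 (0.59 to 1.02, 0.0531 to 0.24), and in blood without WT replicate 1 (1.09, 0.0633), WT replicate 3 (1.14, 0.0598) or KEP replicate 1 (0.80, 0.0987). With sorted cell number in the model all 3 calls of Lag3 were lost (1.16, 0.0555 in lymph node, 0.87, 0.0532 in lung and 1.17, 0.0843 in blood), with limma-voom those in lung (0.86, 0.0721) and blood (1.08, 0.0822), and with T cell scaling or no filter those in lymph node (1.19, 0.0995, and 1.18, 0.0699) and lung (0.80, 0.105, and 0.89, 0.0932). With RLE factors the lymph node call was lost (1.15, 0.0507).

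Pdcd1, the gene of PD-1 (chromosome 1, 94038305 to 94052553, minus strand), rose in blood and lung. In blood it was 13.8, 19.5 and 18.7 CPM in WT and 38.9, 25.0 and 30.2 CPM in KEP mice, and in lung 38.3, 54.6 and 34 CPM in WT and 91.0, 56.0 and 91.2 CPM in KEP mice. Neither pair of groups overlapped, but KEP lung replicate 2 stood only just above the highest WT library. The log2 fold changes were 0.83 ± 0.23 in blood (edgeR adjusted p = 0.0176) and 0.90 ± 0.21 in lung (0.00654). The blood call was lost without WT replicate 1 (0.70, 0.0743) or KEP replicate 1 (0.66, 0.0819), and with sorted cell number added to the model (0.53, 0.226). The lung call was lost when the 6 lung libraries were fitted alone (0.91, 0.0545). In spleen (0.30 ± 0.21, 0.49) and lymph node (-0.05, 0.952) the groups overlapped, with all 12 libraries between 36.4 and 53.7 CPM. A difference among tissues did not pass the test (adjusted p = 0.285).

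Ctla4, which encodes the CD80 and CD86 receptor through which Tregs suppress (chromosome 1, 60887000 to 60915832, plus strand), showed a point estimate above 0 in every tissue and no call. In lung it was 1932, 2070.2 and 1799 CPM in WT and 2567, 2924 and 2542 CPM in KEP mice, without overlap. The log2 fold change there was 0.46 ± 0.24 (edgeR adjusted p = 0.187), and 0.39 ± 0.24 in lymph node and in blood and 0.44 ± 0.24 in spleen. WT replicate 3 held the lowest Ctla4 level of its group in all 4 tissues, at 191 CPM in spleen, 317 CPM in lymph node, 321 CPM in blood and 1799 CPM in lung. With the 6 lung libraries fitted alone Ctla4 was called (0.47, adjusted p = 0.0133), in a fit in which Pdcd1 and Lgals9 lost their lung calls.

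Cd96 and Btla were not called between genotypes in any tissue. Cd96, another receptor for CD155 (chromosome 16, 46035657 to 46120251, minus strand), had group means between 267 ± 39 and 308 ± 35 CPM over the 8 groups of these tissues, and neighbouring groups overlapped throughout that order. Its KEP against WT differences were -0.05 to -0.17, each with an SE of 0.12 (edgeR adjusted p 0.328 to 0.892). Btla, a receptor for HVEM (chromosome 16, 45224315 to 45252895, plus strand), was 77.6, 71.7 and 72.8 CPM in WT and 78.1, 78.7 and 77.2 CPM in KEP lymph node, above all other groups, whose means in these tissues were 39.5 to 52.7 CPM. Its genotype differences were -0.19 to 0.20 with SEs of 0.12 to 0.13 (adjusted p 0.298 to 0.822).

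Tox (chromosome 4, 6686353 to 6991557, minus strand) rose outside the lymph node. In blood it was 67.8, 79.7 and 72.9 CPM in WT and 132, 132 and 148 CPM in KEP mice. In lung it was 57.9, 61.0 and 74.0 CPM in WT and 113, 110.1 and 111 CPM in KEP mice, and in spleen 77.4, 80.3 and 83.9 CPM in WT and 106, 109 and 128 CPM in KEP mice. KEP and WT libraries were apart in these 3 tissues. In lymph node WT libraries already stood at 108, 130.4 and 127 CPM and KEP libraries at 129, 119 and 137 CPM, with overlap. The changes were 0.88 ± 0.10 in blood (edgeR adjusted p = 2.45e-06), 0.78 ± 0.10 in lung (1.57e-05), 0.50 ± 0.10 in spleen (0.00245) and 0.08 ± 0.10 in lymph node (0.75). Tox was the only member whose change differed among the 4 tissues (adjusted p = 0.0232), in a test that called 0.304% of all genes. Between pairs of tissues, the lymph node change was below that in blood by 0.80 ± 0.14 (adjusted p = 0.0117) and below that in lung by 0.70 ± 0.14 (0.0348), and no other pair passed. The call among tissues was lost without WT lymph node replicate 2 (adjusted p = 0.0804), KEP lymph node replicate 1 (0.0602) or KEP lymph node replicate 2 (0.0811), and with scaling to the 10 T cell genes (0.0651). Exons of Tox overlap those of the antisense gene Gm11802, and since the strand setting of the counting is not given in the sources used here, reads of the pair may be mixed.

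Lgals9, the gene of galectin-9, a secreted lectin that binds TIM-3 (chromosome 11, 78962974 to 78984946, minus strand), changed by a small amount. It was 159 ± 10.0 CPM in WT and 195 ± 8.5 CPM in KEP blood and 161 ± 14 CPM in WT and 197 ± 12 CPM in KEP lung, in neither case with overlap. The rises were 0.27 ± 0.08 in blood (edgeR adjusted p = 0.0207) and 0.28 ± 0.08 in lung (0.0159), beside 0.08 ± 0.08 in spleen and 0.04 ± 0.08 in lymph node. The lung call was lost without WT replicate 1 (0.21, 0.0964) or KEP replicate 1 (0.27, 0.0578), and the blood call without WT replicate 1 (0.24, 0.0703), WT replicate 2 (0.26, 0.0547) or KEP replicate 3 (0.25, 0.0737). The lung call was also lost with T cell scaling (0.21, 0.0514) and with the lung libraries fitted alone (0.29, 0.0701), and the blood call with sorted cell number in the model (0.25, 0.101).

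Cd160, a receptor for HVEM that is typical of NK cells and intraepithelial lymphocytes (chromosome 3, 96798763 to 96829351, minus strand), was the member with the largest spread. It was 36.5, 38.9 and 51.8 CPM in WT spleen and 14.9, 32.4 and 10.5 CPM in KEP spleen, without overlap and with KEP replicate 2 apart from the other two. In blood the WT libraries held 12.4, 4.11 and 10.7 CPM and the KEP libraries 1.36, 8.59 and 0.944 CPM, again with KEP replicate 2 high. The differences were -1.14 ± 0.61 in spleen (edgeR adjusted p = 0.343), -1.33 ± 0.72 in blood (0.209), -1.52 ± 0.93 in lung (0.268) and -0.49 ± 0.80 in lymph node (0.838). With the title date as a random block in limma-voom, Cd160 was called lower in KEP spleen (-1.28, adjusted p = 0.0336). Without KEP blood replicate 2 the blood difference was -3.00 and passed the test (adjusted p = 0.0171). For 7 genes of NK and innate lymphoid cells, the sum had a lower median in KEP than in WT mice in each of the 4 tissues, with overlap in blood. Their summed level was 218 to 361 CPM in WT and 104 to 218 CPM in KEP spleen, 101 to 337 CPM in WT and 50.6 to 184 CPM in KEP blood, 131 to 151 CPM in WT and 59.1 to 104 CPM in KEP lung, and 61.1 to 78.8 CPM in WT and 42.3 to 48.1 CPM in KEP lymph node. Their part in the Cd160 levels was not tested. None of the 7 was at 0 throughout spleen, lung or blood, and Klre1 was at 0 in all lymph node libraries. Cd160 exons overlap those of Pdzk1 on the other strand, so its counts are uncertain in the same way as those of Tox.

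**Figure D3:**
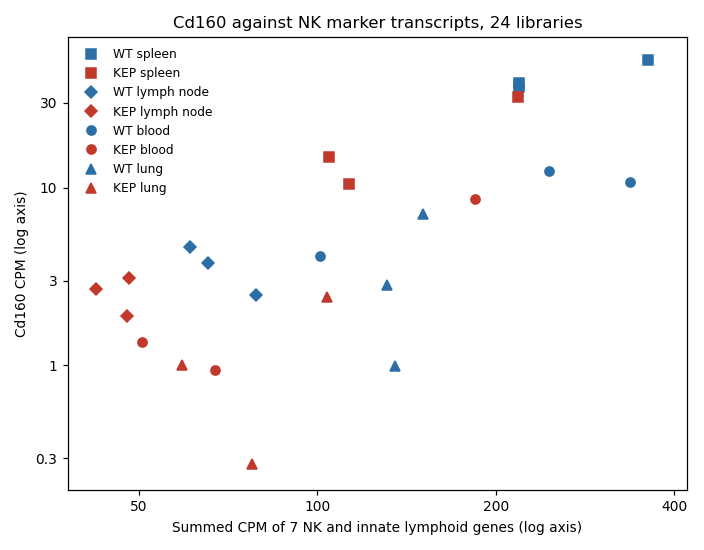
Cd160 CPM (vertical, log axis) against the summed CPM of 7 NK and innate lymphoid genes (horizontal, log axis) in 24 libraries (lymph node, spleen, lung, blood), WT in blue and KEP in red. WT spleen libraries lie highest, and KEP spleen replicate 3 (10.5 CPM) lies below WT blood replicates 1 and 3 (12.4 and 10.7 CPM). KEP replicate 2 of spleen and of blood holds both the most NK transcripts and the most Cd160 of its group.

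Tissues differed more than genotypes for several members, and each tissue was set against spleen within a genotype. These comparisons share their spleen libraries, so they are given side by side. Ctla4 was the member with the clearest lung pattern: it stood at 268 ± 68 CPM in WT spleen and 1934 ± 136 CPM in WT lung, and at 363 ± 51 and 2678 ± 214 CPM in KEP mice. The log2 rises from spleen to lung were 2.85 ± 0.26 in WT (edgeR adjusted p = 6.35e-08) and 2.88 ± 0.26 in KEP mice (5.16e-08), 7.23- and 7.35-fold. Tigit also rose in lung, by 1.33 ± 0.16 and 1.02 ± 0.16, and Havcr2 by 1.77 ± 0.24 and 1.60 ± 0.18. Pdcd1 rose in lung of KEP mice (0.76 ± 0.21, adjusted p = 0.00571) and gave 0.16 ± 0.22 in WT (0.597). In WT lung Tox and Lgals9 fell by 0.32 ± 0.10 and 0.26 ± 0.08, calls that were lost without WT lung replicate 1 (-0.24, adjusted p = 0.0951, and -0.18, 0.107), for Tox also without WT lung replicate 2 (-0.28, 0.0589), and for both with T cell scaling (-0.18, 0.157, and -0.12, 0.198). Btla gave 0.30 ± 0.13 in WT lung (0.0611) and passed without WT spleen replicate 3 (0.40, 0.0262) or WT lung replicate 2 (0.43, 0.00986) or 3 (0.37, 0.0455). It also passed with RLE factors, T cell scaling, no filter, a minimum count of 50 or DESeq2 (0.30 to 0.46, adjusted p 0.0181 to 0.0384). In all, 6 members were called in WT lung, where 44.9% of all genes were, and 5 in KEP lung, where 48.1% were.

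Lymph node differed from spleen in fewer genes, with 8.97% called in WT and 11.1% in KEP mice, and 4 members were called in each. Havcr2 rose by 2.44 ± 0.23 in WT (edgeR adjusted p = 1.03e-07) and 1.49 ± 0.17 in KEP mice (4.37e-06), and Btla by 0.91 ± 0.13 (2.63e-05) and 0.79 ± 0.12 (0.000157). Tox rose in WT lymph node (0.60 ± 0.10, 0.000169), and Lag3 in KEP lymph node (0.91 ± 0.27, 0.0357). The Lag3 call was lost without KEP spleen replicate 2 (0.76, 0.15) or 3 (0.77, 0.164) and without KEP lymph node replicate 1 (0.71, 0.18) or 3 (0.95, 0.0624), and with no filter (0.91, 0.0793). Cd160 fell by 3.54 ± 0.71 in WT and by 2.89 ± 0.72 in KEP mice, and the latter call was lost without KEP spleen replicate 2 (-2.30, 0.0727) or KEP lymph node replicate 1 (-2.92, 0.0613) or 3 (-2.72, 0.0593). Ctla4 was near the threshold in both (0.79 ± 0.24, adjusted p = 0.052, and 0.74 ± 0.24, 0.0593) and passed with DESeq2 (0.79, 0.014, and 0.72, 0.0235). In KEP mice it passed with the title date, shared by tissues, as a block (0.74, 0.000213) and in WT mice without WT lymph node replicate 3 (0.99, 0.0164).

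Blood held less Lag3 than spleen in both genotypes and less Pdcd1 in WT mice. Lag3 was 16.4 ± 0.33 CPM in WT spleen and 5.62 ± 1.2 CPM in WT blood, a fall by 1.54 ± 0.33 (edgeR adjusted p = 0.00198), and it fell by 0.89 ± 0.29 in KEP mice (0.0303). The KEP call was lost without KEP spleen replicate 1 (-0.58, 0.181), KEP blood replicate 2 (-0.83, 0.0885) or KEP blood replicate 3 (-0.62, 0.149), and with T cell scaling (-0.76, 0.1). Pdcd1 fell by 1.12 ± 0.23 in WT blood (0.00158), a call lost with sorted cell number in the model (-0.70, 0.138), and in KEP blood it gave -0.59 ± 0.22 (0.0526), which passed with the date as a block (-0.59, 0.000197) and without KEP spleen replicate 2 (-0.73, 0.0333) or KEP blood replicate 1 (-0.77, 0.0315). Havcr2 rose by 1.40 ± 0.24 in WT and 1.40 ± 0.18 in KEP mice, and Ctla4 by 0.98 ± 0.24 and 0.94 ± 0.24. In all, 8 members were called in WT blood, where 25.5% of all genes were, and 5 in KEP blood, where 24.6% were. Tox gave 0.25 ± 0.10 in KEP blood (0.0541) and passed with the block (0.26, 0.0062), without KEP spleen replicate 3 (0.35, 0.0196), and with RLE factors, T cell scaling, a minimum count of 50, DESeq2 or limma-voom (0.26 to 0.37, 0.00777 to 0.0452).

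The remaining blood calls were smaller or rested on few counts. Tigit rose by 0.54 ± 0.16 in WT blood and by 0.60 ± 0.16 in KEP blood, and the WT call was lost without WT spleen replicate 2 (0.52, edgeR adjusted p = 0.0605) or 3 (0.53, 0.0556) or WT blood replicate 1 (0.36, 0.137). Btla rose by 0.42 ± 0.13 in WT blood and lost its call without WT spleen replicate 1 (0.36, 0.0698) or 2 (0.36, 0.0859) or WT blood replicate 1 (0.41, 0.05) or 3 (0.39, 0.0553). Lgals9 fell by 0.27 ± 0.08 in WT blood and lost its call without WT blood replicate 1 (-0.25, 0.0625) or 2 (-0.25, 0.0501). Cd160 fell in blood by 2.21 ± 0.65 in WT and 2.41 ± 0.70 in KEP mice, and in lung by 3.59 ± 0.73 and 3.96 ± 0.81. The WT blood call of Cd160 was lost without WT spleen replicate 3 (-2.06, 0.0591) or WT blood replicate 2 (-1.87, 0.0666). Its KEP blood call was lost without KEP spleen replicate 2 (-1.80, 0.102) or KEP blood replicate 1 (-2.03, 0.0801) or 3 (-1.93, 0.0824).

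**Figure D4:**
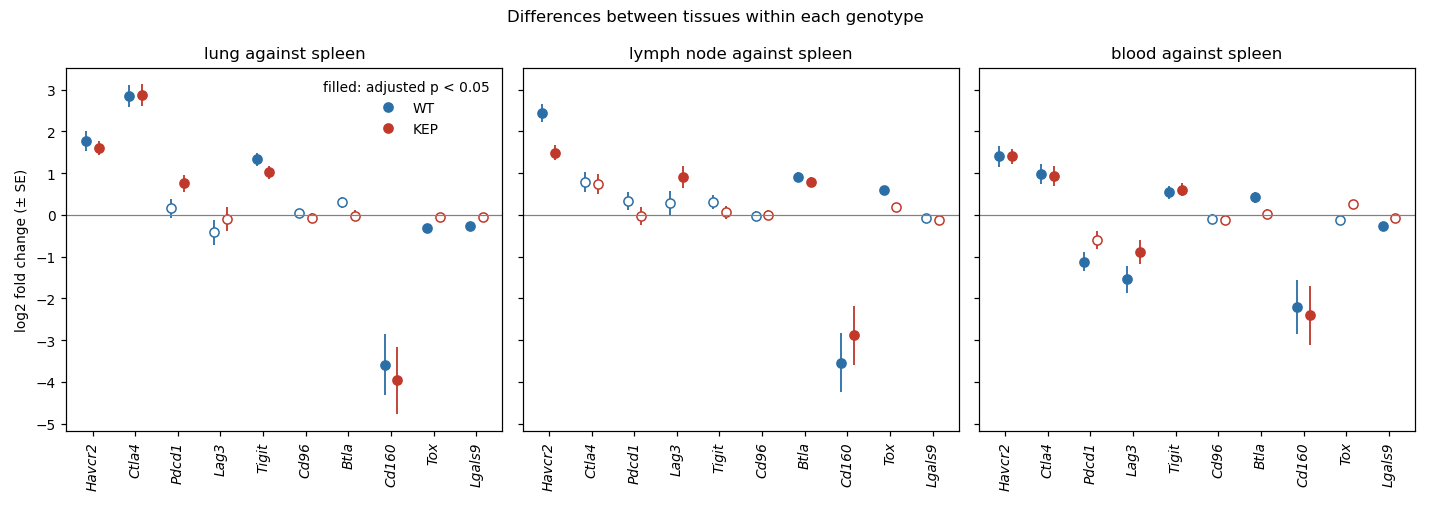
Log2 fold change (± SE) of each gene in lung, lymph node and blood against spleen, WT in blue and KEP in red, 3 libraries per group, with filled points at an adjusted p under 0.05. Ctla4 is near 2.9 in lung in both genotypes, Btla is raised in lymph node in both, and Cd160 lies below 0 in every panel.

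Tumor Tregs were compared with those of healthy mammary gland, the tissue of origin. 9 of the 10 members rose and Cd160 did not pass the test, in a comparison that called 53% of all 15202 genes (23.5% higher). The members' median was 2.40 on the log2 scale and that of all genes -0.10. Pdcd1 was 599, 212 and 337 CPM in tumor and 14.4, 60.1, 3.46 and 3.03 CPM in mammary gland, a difference of 4.26 ± 0.61 (edgeR adjusted p = 4.82e-06). Havcr2 was 83.5, 74.9 and 32.1 CPM in tumor and 2.57, 8.03, 2.09 and 1.31 CPM in gland (4.21 ± 0.39, 1.21e-08). Tigit was 375, 281 and 119 CPM in tumor and 14.5, 62.1, 5.16 and 4.68 CPM in gland (3.59 ± 0.54, 9.39e-06). These 3 genes did not overlap between the groups, as was the case for 38.8% of all genes, and in each of them gland replicate 2, the gland library with the most T cell RNA, stood highest in its group. Ctla4 did overlap: it was 3357, 2515 and 875 CPM in tumor and 183, 1035, 48.4 and 71.6 CPM in gland (2.75 ± 0.63, 0.000914). Tox (2.46 ± 0.42), Cd96 (2.34 ± 0.47), Lag3 (2.06 ± 0.40), Btla (1.96 ± 0.41) and Lgals9 (1.34 ± 0.11) rose as well. Cd160 had 2 to 10 counts per tumor library and 2 to 5 per gland library, too few for a fold change to be read.

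The amount of T cell RNA differed between these libraries, and scaling to 10 T cell genes separated the members. It moved the median of all genes to -3.46. On this scale Pdcd1 (2.18, edgeR adjusted p = 4.82e-06), Havcr2 (1.29, 0.00228) and Tigit (1.19, 0.000288) were still higher in tumor, and Ctla4 was not called (0.53, 0.113). Lag3 (-1.41, 0.0117) and Lgals9 (-1.91, 0.000327) turned lower, each by less than the median of all genes. No fold is read for Cd160 from its few counts, and Cd96 (-0.077), Btla (-0.63) and Tox (-0.19) were not called. In gland, Lag3 was 14.4 to 36.5 CPM and Lgals9 61.9 to 94.3 CPM, while the T cell sum ran from 2.77% to 32.5% of WT spleen. Their scaled gland levels (18.9 to 114 and 48.7 to 402 CPM) therefore depend on a small T cell sum. How much of either transcript came from T cells was not tested. Per 1000 CPM of T cell genes, Havcr2 was 13.6 to 20.5 CPM in tumor, 4.15 to 12.7 CPM in gland, 5.95 to 6.54 CPM in KEP lung and 0.299 to 0.400 CPM in WT spleen. Pdcd1 was 57.9 to 177 CPM in tumor and 13.9 to 31.5 CPM in gland on that scale, and Tigit 60.8 to 76.8 and 21.5 to 32.1 CPM. Cd96 overlapped, at 32.5 to 55.4 CPM in tumor and 41.9 to 45.2 CPM in gland. With the 7 libraries fitted alone, 5 members were called (Havcr2, Pdcd1, Lag3, Tigit and Lgals9), against 9 in the fit of all libraries. Over all genes these fits called 3669 and 8064. With gland replicate 2 as the only control, the other groups supply the spread for that lone library, so only the differences are given. They were 3.00 for Havcr2, 2.69 for Pdcd1, 2.07 for Tigit, 1.34 for Lag3 and 1.14 for Ctla4. For Tox the difference was 1.09, for Lgals9 0.97, for Cd96 0.89 and for Btla 0.56.

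**Figure D5:**
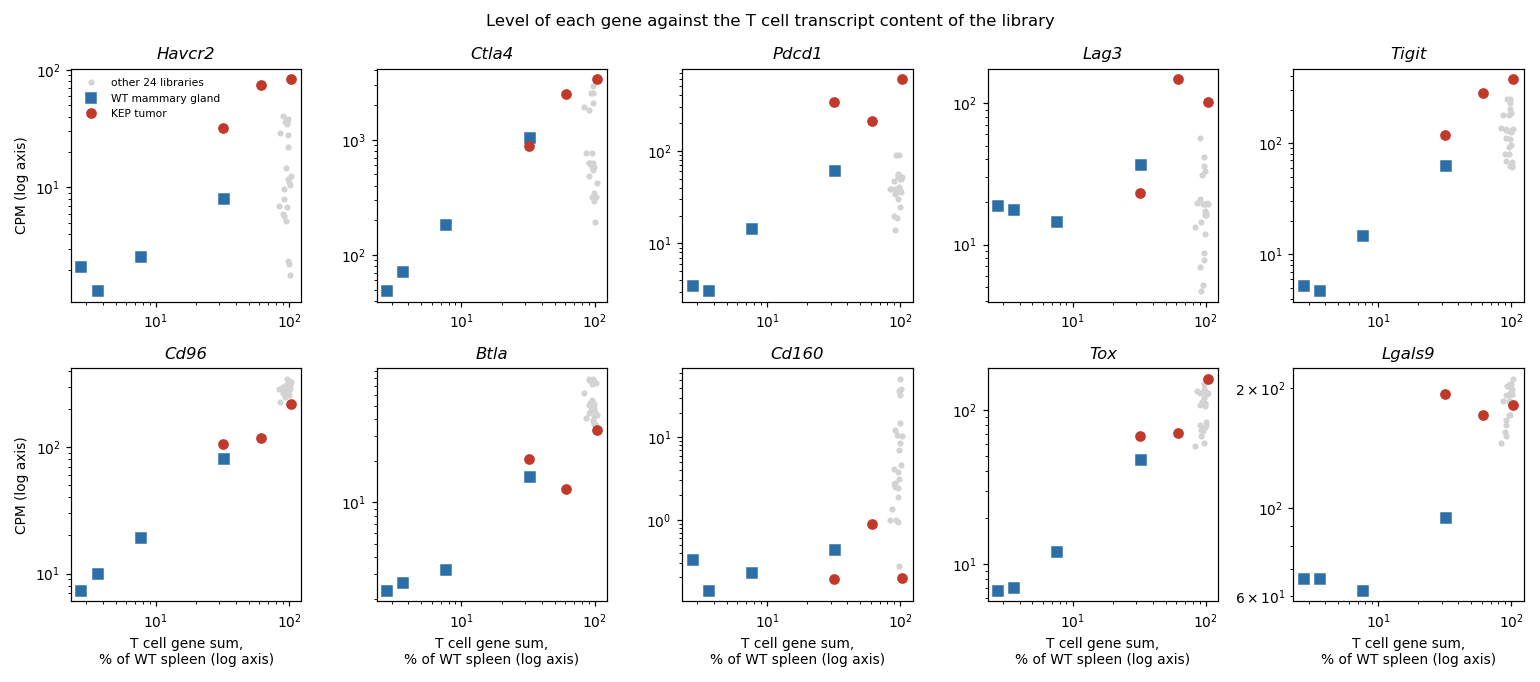
CPM of each gene (log axis) against the summed level of 10 T cell genes as % of WT spleen (log axis), with mammary gland as blue squares, tumor as red circles and the other 24 libraries in grey. Havcr2, Pdcd1 and Tigit lie higher in the tumor library than in the gland library at a T cell content near 32% (32.1 and 8.03, 337 and 60.1, and 119 and 62.1 CPM), and Cd96 stands at 105 and 81.0 CPM there. Ctla4 (875 and 1035 CPM) and Lag3 (23.2 and 36.5 CPM) lie lower in that tumor library. The reading sets tumor replicate 3 alone beside gland replicate 2 alone.

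Other cells were present in these libraries as well. Genes of stroma and endothelium summed to between 4276 and 9768 CPM in tumor and between 2953 and 7084 CPM in gland. The 12 macrophage and monocyte genes summed to 974, 6061 and 1542 CPM in the 3 tumor libraries and 381 to 856 CPM in gland, with none of the 12 at 0 in any of them. Havcr2 and Lgals9 are also expressed by macrophages, and the tumor library with the highest macrophage sum, replicate 2, held 74.9 CPM of Havcr2 beside 83.5 CPM in replicate 1, whose macrophage sum was the lowest of the 3. Per 1000 CPM of T cell genes the order differed, with Havcr2 at 20.5 CPM in replicate 2, 13.6 CPM in replicate 1 and 16.9 CPM in replicate 3. The part of macrophages in these levels was not tested. Lag3 was highest in tumor replicate 2 (148 CPM, beside 102 and 23.2 CPM).

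Within KEP mice, tumor was compared with lymph node, spleen, lung and blood, in tests that share the tumor libraries. Pdcd1 stood apart from all 4: its lowest tumor library, at 212 CPM, was above its highest library elsewhere, at 91.2 CPM. It was higher in tumor by 3.06 against lymph node, 3.03 against spleen, 2.27 ± 0.62 against lung (edgeR adjusted p = 0.0039) and 3.61 ± 0.67 against blood (6.19e-05), and it was called under each alternative and each omission of a library that was run. Lag3 was higher than in spleen by 1.92, than in lung by 2.01 ± 0.45 and than in blood by 2.80 ± 0.46. Its tumor replicate 3, at 23.2 CPM, lay within the ranges of KEP spleen (19.3 to 33.3 CPM) and KEP lung (17.3 to 30.9 CPM). With only the libraries compared in the fit, Lag3 was not called against spleen or lung. Ctla4 was higher than in spleen by 2.63, and its tumor libraries spanned the range of lung, where the difference was -0.25 ± 0.66 (0.77). Tox gave -0.17 ± 0.43 to -0.47 ± 0.43 against lung and blood, and Lgals9 -0.11 ± 0.11 and -0.10 ± 0.11, none of them called. The comparisons called 60.5% of all genes against lymph node, 61.5% against spleen, 53.7% against lung and 62.7% against blood, and 6, 6, 3 and 6 members. The share of all genes without overlap between tumor and these tissues is not given here.

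Havcr2 in tumor was higher than in spleen by 2.43, than in lymph node by 0.95 (edgeR adjusted p = 0.0321) and than in blood by 1.01 ± 0.38 (0.023), and against lung it gave 0.82 ± 0.37 (0.0692). The lymph node call was lost without KEP lymph node replicate 2 (0.74, 0.14), tumor replicate 1 (0.71, 0.131) or tumor replicate 2 (0.82, 0.0926). The blood call was lost without tumor replicate 1 (0.79, 0.0909) or 2 (0.90, 0.0659) or KEP blood replicate 1 (0.97, 0.0619) or 2 (0.95, 0.0671), and lung was called without tumor replicate 3 (1.14, 0.0109). The lymph node and blood calls were also lost with only the libraries compared in the fit, and the lymph node call with no filter. Against lung Havcr2 was also called with RLE factors, DESeq2, limma-voom or T cell scaling (0.70 to 1.42, 0.00743 to 0.0499).

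Ctla4 and Lag3 were also higher in tumor than in lymph node, by 1.91 and 1.03 (edgeR adjusted p for Lag3 0.0432), and Ctla4 higher than in blood by 1.68 ± 0.68 (0.0347). Against lymph node, Ctla4 lost its call without KEP lymph node replicate 2 (1.86, 0.0574) or tumor replicate 1 (1.5, 0.0798). Lag3 lost its call there without KEP lymph node replicate 2 (0.90, 0.128) or 3 (0.99, 0.101), without tumor replicate 1 (0.94, 0.0923) or 2 (0.50, 0.347), and with limma-voom (0.68, 0.151). It also lost that call with upper-quartile factors, with no filter and with only the libraries compared in the fit. Against blood, of the omissions, Ctla4 kept its call only without tumor replicate 3 (1.30 to 1.77, 0.0651 to 0.125 without each of the other libraries). The blood call of Ctla4 was also lost with no filter and with limma-voom.

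Btla was lower in tumor than in every other KEP tissue. It was 33.3, 12.4 and 20.7 CPM in tumor and at least 38.7 CPM in each of the 12 other KEP libraries. The differences were -1.82 against lymph node, -1.04 against spleen, -1.03 ± 0.41 against lung (edgeR adjusted p = 0.0371) and -1.08 ± 0.41 against blood (0.0254). With scaling to the T cell genes they were -1.08 (0.0279), -0.22 (0.662), -0.28 (0.578) and -0.35 (0.472), so that only the lymph node difference passed. With no filter the spleen, lung and blood calls were lost as well. Those against spleen and lung were also lost with RLE factors and with only the libraries compared in the fit. DESeq2 and sorted cell number in the model also removed the spleen call. The spleen, lung and blood calls were each lost without tumor replicate 2 (-0.74, -0.73 and -0.77, adjusted p 0.136 to 0.174) or tumor replicate 3 (-0.99, -0.98 and -1.01, 0.0682 to 0.0892), and without KEP spleen replicate 2 (-0.94, 0.0874) or 3 (-1.07, 0.052), KEP lung replicate 1 (-1.01, 0.0723) or 2 (-0.94, 0.0986), and KEP blood replicate 2 (-1.03, 0.0598) or 3 (-0.98, 0.0745).

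Tigit and Cd96 were not called between tumor and any KEP tissue, and some of these differences passed under other settings. With T cell scaling Tigit was higher than in lymph node (1.61, edgeR adjusted p = 0.000146), spleen (1.75, 5.75e-05) and blood (1.03, 0.00834). Cd96 stood at 219, 119 and 105 CPM in tumor, below all 12 other KEP libraries, and was called lower against each of the 4 tissues with limma-voom (-0.92 to -1.03, 0.0242 to 0.0405). With T cell scaling Cd96 was called against none of them. Per 1000 CPM of T cell genes it was 35.5, 32.5 and 55.4 CPM in tumor, beside 43.9 to 53.8 CPM in the 12 other KEP libraries. Without tumor replicate 3, the tumor library with the least T cell RNA, Tigit was called against lymph node (1.42, 0.0393) and spleen (1.47, 0.033), and without tumor replicate 1 Cd96 was called against lymph node (-1.33, 0.0441) and spleen (-1.34, 0.0415). Cd160, at 0.196, 0.889 and 0.193 CPM in tumor, was called lower than in lymph node, spleen and blood (adjusted p 0.0166, 1.27e-05 and 0.00455), but no fold is read from its 2 to 10 counts per tumor library. The lymph node call was lost without tumor replicate 1 (0.065) or 3 (0.0765) and with T cell scaling (0.104), and the blood call without KEP blood replicate 2 (0.195). The blood call was also lost with limma-voom and with only the libraries compared in the fit.

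Other genes of the same pathways were counted as 4 lists. The shares of all genes called, against which their counts are read, were 1.12% in lymph node, 4.26% in spleen, 19.9% in lung and 20.2% in blood. Of 12 ligands and binding partners, 10 were tested in the 24 libraries. Cd80, a ligand of CTLA-4, rose in KEP mice in all 4 tissues, by 1.01 ± 0.21 in lymph node, 1.56 ± 0.20 in spleen, 1.18 ± 0.19 in lung and 1.09 ± 0.18 in blood (edgeR adjusted p 0.0153, 2.68e-05, 0.000233 and 0.000222). Lgals3, the gene of galectin-3, rose in spleen (1.19 ± 0.21), and Tnfrsf14, the gene of the BTLA and CD160 ligand HVEM, fell by 0.53 ± 0.13 in lung and by 0.42 ± 0.13 in blood. That made 1 of 10 higher in lymph node, 2 in spleen, and 1 higher with 1 lower in lung and in blood, at list medians of -0.03, -0.00, 0.21 and 0.06.

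Of 14 other receptors 12 were tested, and 1 rose in lymph node, 3 in spleen, 4 in lung and 3 in blood, with none lower. Icos, a costimulatory receptor of the CD28 family, rose in all 4 tissues, by 0.52 ± 0.12, 0.80 ± 0.12, 0.65 ± 0.12 and 0.64 ± 0.12 in that order. Cd200r1, the inhibitory receptor for CD200, rose by 1.23 ± 0.22 in spleen, 1.30 ± 0.23 in lung and 1.39 ± 0.22 in blood, and Klrg1, a receptor for cadherins on effector T cells and Tregs, by 1.5 ± 0.28, 1.26 ± 0.28 and 1.30 ± 0.27. Of 14 signalling genes none passed in lymph node, 1 rose in spleen (Trat1, 0.74 ± 0.12), and 3 fell in lung and 3 in blood, which is near the share of all genes called in these tissues. Ptpn6, the gene of the phosphatase SHP-1 that several inhibitory receptors recruit, was among those that fell, by 0.34 ± 0.12 in lung and 0.42 ± 0.12 in blood. Beside Tox, 11 genes of the Tox family and of calcineurin, NFAT and NR4A signalling were tested. None passed in lymph node, 2 rose in spleen, 3 in lung and 3 in blood, with 1 lower in blood. Batf and Irf4, which are induced downstream of the antigen receptor, rose in spleen (0.74 ± 0.16 and 0.58 ± 0.14), lung (0.83 ± 0.16 and 0.69 ± 0.13) and blood (0.67 ± 0.16 and 0.56 ± 0.13). Tox2 rose in blood (1.27 ± 0.41).

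The NR4A genes followed the tissue. Nr4a1 stood at 55.3 CPM in WT spleen and 1547 CPM in WT lung on average, and at 50.3 and 1774 CPM in KEP mice (4.81 ± 0.24 and 5.13 ± 0.24). Nr4a3 was higher in lung than in spleen by 5.67 ± 0.21 and 6.31 ± 0.22, and Nr4a2 by 7.21 ± 0.37 and 8.29 ± 0.39. In tumor against KEP lymph node they were higher by 4.81 ± 0.30 (Nr4a1), 7.87 ± 0.50 (Nr4a2) and 5.13 ± 0.41 (Nr4a3). Enzyme digestion is named in the labels for lung and tumor alone, so the tissue and the digestion cannot be told apart for these genes or for Ctla4. In tumor against gland, 6 of 11 ligands tested were higher and 2 lower, led by Cd80 (4.65 ± 0.50), Cd274 (2.32 ± 0.32) and Pdcd1lg2 (3.44 ± 0.49), the last pair being the genes of PD-L1 and PD-L2, and 10 of 12 other receptors were higher, where 23.5% of all genes were higher. The T cell sum was 32.0% to 103% of WT spleen in tumor and 2.77% to 32.5% in gland. These list counts were not repeated with T cell scaling, so they cannot be told apart from T cell content.

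Levels of different genes can be compared per length of exon. In WT spleen the mean RPKM (reads per kilobase of exon, scaled to library size) was highest for Cd96 (137), Ctla4 (115), Lgals9 (90.3) and Tigit (67.5), followed by Pdcd1 (19.6), Cd160 (16.1), Btla (11.6), Tox (10.6) and Lag3 (7.75), and lowest for Havcr2 (0.782). In tumor it was highest for Ctla4 (965), Tigit (281) and Pdcd1 (198), with Havcr2 at 23.3.

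Over the 24 libraries of the 4 tissues sampled in both genotypes, likeness between genes was described by Pearson's r of log2 CPM among 9722 genes, over points that share tissue, genotype and title date. Havcr2 was most like Axl, a receptor tyrosine kinase (0.963), Trp73 (0.952) and Arl5a (0.926), and r within groups was 0.768, 0.601 and 0.199. Ctla4 was most like Nfil3 (0.963), Pde4d (0.961) and Crem (0.960), Pdcd1 like Tnfrsf9, the gene of the costimulatory receptor 4-1BB (0.951), and Tigit like Adam9 (0.947) and Gbp3 (0.946). Lag3 was most like Twsg1 (0.929), Tox like Cd81 (0.918), Lgals9 like Capzb (0.917), Cd160 like Slamf7, a receptor of NK and other lymphocytes (0.916), Btla like Rcan3 (0.842) and Cd96 like Psmf1 (0.759). Among the members, r was 0.809 for Ctla4 with Tigit, 0.751 for Havcr2 with Tigit, 0.743 for Havcr2 with Tox and -0.740 for Havcr2 with Cd160, and within groups it was 0.479, 0.331, 0.579 and -0.268.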

How the data were processed

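RNA was sequenced as 65-base single reads from strand-specific libraries (TruSeq Stranded mRNA kit), per the labels' protocols. The values are raw counts per gene as deposited by the authors. The submitters' processing notes name TopHat2 2.1.0, HTSeq and GRCm38, and the annotation release and the strand setting are not given in the sources used here. CPM and RPKM were computed from the counts with TMM factors and merged exon lengths of GENCODE M21, which held 24286 of the file's gene IDs. Coordinates are those of GRCm38.

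Differences were tested with the quasi-likelihood test of edgeR 4.0.16 (R 4.3.3) after filterByExpr with a minimum count of 10, at a Benjamini-Hochberg adjusted p under 0.05. The 24 libraries from lymph node, spleen, lung and blood were fitted together (12825 genes), apart from tumor and mammary gland, whose replicates vary more (chi-square per degree of freedom of 22.7 to 188.9, against 4.67 to 17.5). Tumor comparisons used all 31 libraries (15202 genes). All 10 members passed both filters. DESeq2 1.42.0, limma-voom (limma 3.58.1), other scalings and filters, sorted cell number, other sets of libraries and omission of each library were run as alternatives.

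The members and the gene lists were chosen with earlier results of these data known. Genes beside the members were named by rule: the 3 genes most alike to each member by Pearson's r of log2 CPM (prior count of 2, mean of at least 5 CPM), of which the closest are printed, and up to 4 called genes per list by smallest p, of which those in the text are examples. Title dates are shared by tissues within a genotype. Deviations from the group mean were correlated between libraries of a date. Over the 4 tissues r was 0.188 to 0.421 in 18 KEP pairs (median 0.265) and 0.00173 to 0.201 in 18 WT pairs (median 0.0897). In 12 KEP pairs with tumor it was -0.112 to 0.104 (median -0.00254). The dates were therefore taken to pair the 4 KEP tissues. Tumor replicates vary more, as given above, so their low r cannot settle whether a date also pairs tumor.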

Additional observations from a re-analysis of the deposited data

Results flagged for a closer look

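Mammary gland replicate 2 stood far above the other 3 gland libraries for 5 of the 10 genes, by the ratio of its gap to the range of the group (Dixon's test at the 95% level). It held 1035 CPM of Ctla4, 81.0 CPM of Cd96, 15.2 CPM of Btla, 47.4 CPM of Tox and 94.3 CPM of Lgals9. Chance alone sets apart about 1 in 20 groups, and the 5 genes share this library. Its T cell genes summed to 32.5% of the WT spleen mean and those of the other 3 to 2.77% to 7.69%.

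The change of Tox between KEP and WT mice differed among lymph node, spleen, lung and blood by edgeR's quasi-likelihood test (adjusted p = 0.0232), with log2 fold changes of 0.08, 0.50, 0.78 and 0.88 in that order.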

How the results depend on the processing

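Of the members' values under settings other than the omission of a library, 99 lost their call, 48 gained it and 6 turned their sign with a call in either setting, each of the 6 under scaling to T cell genes in tumor against mammary gland: Lag3 -1.41, Cd96 -0.077, Btla -0.63, Cd160 -2.42 (from 2 to 10 counts a library), Tox -0.19 and Lgals9 -1.91. Over all settings, 72 of 2509 values that were called in neither had another sign. Beside the counts of members that follow, brackets give the number of all genes called. With all 31 libraries sharing 1 spread, the members called in KEP against WT mice were 0 in lymph node (all genes 2), 1 in spleen (68), 1 in lung (469) and 1 in blood (657). Against spleen they were 3 in KEP lung (all genes 4288), 2 in KEP lymph node (247), 2 in KEP blood (1100), 3 in WT lung (4104), 2 in WT lymph node (297) and 2 in WT blood (1198). Among tissues 0 members differed (all genes 0). With only the libraries compared the members called were 5 in tumor against mammary gland (all genes 3669), 1 in tumor against lung (4210) and 3 in KEP blood against spleen (3120). Limma-voom gave 5 in tumor against lung (all genes 7986). With sorted cells as a covariate they were 3 in KEP against WT blood (all genes 1160) and 5 in WT blood against spleen (2153). For a change that differs among tissues, T cell scaling gave 0 (all genes 12) and no filter gave 2 (359). With the title date as a replicate block, 5 were called in tumor against lung (all genes 7386), 7 against lymph node (8474), 8 against spleen (8613) and 7 against blood (8738). Whether the dates pair tumor with other tissues was not settled. Calls gained there were those of Tigit (lymph node 1.03, spleen 1.09), Cd96 (-0.82 to -0.93) and Havcr2 (lung 0.84), and Lag3 against lymph node was lost (0.89). In WT mice the block gained Ctla4 in lymph node (0.78) and Btla in lung (0.30), and it changed no other call but those given in the text. Omitting each library gave 9 to 9 members in tumor against gland, 3 to 6, 5 to 7, 2 to 3 and 2 to 5 in tumor against lymph node, spleen, lung and blood, and 1 to 2, 3 to 3, 4 to 6 and 3 to 7 in KEP against WT mice in the same order. Against spleen it gave 5 to 5 (KEP lung), 2 to 4 (KEP lymph node), 3 to 6 (KEP blood), 4 to 7 (WT lung), 4 to 5 (WT lymph node) and 5 to 7 (WT blood), and 0 to 1 for the difference among tissues. Cd160 in lung, tumor and gland rested on as few as 2 to 3 counts in a library, so small differences were not detectable there. Over all genes, KEP against WT lymph node called 143, against 2 with 31 libraries, 66 with T cell scaling and 300 with DESeq2.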
